A study of Homo sapiens with 16 samples.

Results

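Interferon-stimulated genes are the genes that a cell switches on when an interferon, the antiviral alarm cytokine, binds its receptor. The members described here were taken from a list of 46 symbols by gene name in the deposited count table. Of these, 45 had an entry of that name among the 60603 genes of the table, and only OAS1 had none. The entry that carries the OAS1 identifier has a clone name in the table, and all 11 of its transcripts belong to OAS1 in GENCODE release 44. Its values are given beside the 45 members and are not counted with them.

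RNA was sequenced from 2 established human lines of acute myeloid leukaemia: SKNO-1, and U-937. Each line received DMSO (the solvent), all-trans retinoic acid (ATRA), Corin, or ATRA and Corin together, at 0.1 µM of each agent for 24 h. There were 2 libraries in each of the 8 groups. ATRA is the ligand of the retinoic acid receptors and a differentiation agent in leukaemia. Corin is a synthetic compound that blocks both enzymes of the CoREST repressor complex, a histone deacetylase and the histone demethylase LSD1. SKNO-1 cells were kept with GM-CSF at 10 ng/mL and U-937 cells without it, so line and medium cannot be told apart, and each line stands for 1 leukaemia only. The sources used here do not say that the 2 libraries of a group came from separate cultures, so the p-values measure only the spread between these libraries.

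In the usual course of this pathway, interferons alpha and beta act through the receptor chains IFNAR1 and IFNAR2 and the kinases JAK1 and TYK2. Their activity leads to the ISGF3 complex, of which STAT2 and IRF9 are subunits. ISGF3 binds the interferon-stimulated response element (ISRE) in promoters, whereas the response to interferon gamma runs through the gamma-activated site (GAS). IRF1 and IRF7 are themselves interferon-induced factors that can bind ISRE-like sequences, and many of the products block viruses by cutting, modifying or trapping viral RNA and particles. In myeloid leukaemia cells, induction of such genes has long been described as part of the response to retinoic acid.

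The promoter sequences show what many of these genes share beyond their names. RefSeq promoter windows, which reach from 250 bases before to 50 bases after a gene's start on GRCh38.p14, were at hand for 37 of the 46 listed symbols. The ISRE was searched on both strands as GAAA, 2 bases of any kind, and GAAA. It occurred in 25 of the 37 (67.6%), against 4.38% of all 27305 genes with a window. The GAS, searched in the same way as TTCNNNGAA, occurred in 12 of the 37 (32.4%), against 9.38% of all genes. A retinoic acid element of the DR5 type, searched as AGGTCA repeated after 5 bases of any kind, occurred in 0 of the 37, against 0.00732% of all genes. This exact match was found in only 2 of the 27305 genes. The search was thus too strict to tell whether the members' promoters hold retinoic acid elements. A match is a run of letters and not a measured binding site, and a window without a match says nothing of sites elsewhere. The stretches below belong to members on which the results turn. Each is read 5′ to 3′ on the strand of its gene, and capitals mark the motif. IRF1 is shown with its GAS, at chr5:132490874-132490912 on the minus strand, because its window held no ISRE. The other 6 are shown for their ISREs, single or in tandem: ISG15 at chr1:1013369-1013414 (plus), IFI6 at chr1:27672261-27672363 (minus), IFIT1 at chr10:89392492-89392544 (plus), IFIT3 at chr10:89332420-89332502 (plus), BST2 at chr19:17405730-17405775 (minus) and RSAD2 at chr2:6877617-6877656 (plus).
IRF1: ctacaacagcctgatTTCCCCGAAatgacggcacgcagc
ISG15: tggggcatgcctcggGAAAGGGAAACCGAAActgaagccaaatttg
IFI6: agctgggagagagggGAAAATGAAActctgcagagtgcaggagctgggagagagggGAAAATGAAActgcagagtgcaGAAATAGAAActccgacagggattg
IFIT1: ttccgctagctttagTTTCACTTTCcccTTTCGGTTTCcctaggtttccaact
IFIT3: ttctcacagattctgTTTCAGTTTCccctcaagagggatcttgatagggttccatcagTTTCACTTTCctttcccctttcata
BST2: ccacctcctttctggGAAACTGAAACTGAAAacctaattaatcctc
RSAD2: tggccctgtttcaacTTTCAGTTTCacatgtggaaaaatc

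Libraries held 28.4 M to 37.8 M estimated counts. Levels are given as CPM, the usual per-library rate of counts after TMM scaling of the library sizes, with the 2 libraries of a group in a fixed order. Changes are log2 fold changes with an approximate standard error (SE). Every adjusted p comes from the quasi-likelihood test of edgeR, adjusted over all genes tested by the Benjamini-Hochberg method, and a gene is called changed at an adjusted p under 0.05. The SE is the log2 change fitted without a prior count (a small count added to steady the fold), divided by the square root of that test's F. For genes with few counts in a group, this SE can be smaller than the counting error. The markers that tell the lines apart followed the labels: RUNX1T1, part of the fusion gene of SKNO-1, was at 92 to 148 CPM in SKNO-1 and at most 0.0344 CPM in U-937. HOXA9 and HOXA10 had 0 counts in SKNO-1. Of the myeloid markers, MPO was abundant in SKNO-1 but at most 0.469 CPM in U-937. Of 6 lymphocyte markers of T and NK cells, the summed level in U-937 was 71.1 to 139 CPM, nearly all from NKG7, while CD3E was at most 0.0304 CPM. In SKNO-1 the B cell list summed to 19.9 to 29.5 CPM, nearly all from CD79B. Of 4 plasmacytoid dendritic cell markers, TCF4 was at 27.6 to 48.9 CPM in U-937 and at most 0.240 in SKNO-1. CLEC4C in U-937 went from 0.0939 and 0.0339 CPM with DMSO to 5.77 and 4.71 with both agents. LILRA4 was at most 0.0935 CPM, and IL3RA at most 4.62 in SKNO-1 and 0.962 in U-937. The erythroid list summed to at most 0.0679 CPM. The part of such markers in the members' levels was not tested. The DMSO pair of SKNO-1 stood apart. The log2 difference between its 2 libraries had an SD of 0.361 over genes and followed the genes' GC content (r = 0.796 across 9354 genes, which are not independent replicates). In the other 7 groups that SD was 0.108 to 0.208. Their r with GC content ran from -0.423 (SKNO-1 with ATRA) to 0.578 (U-937 with DMSO). Whether the number of members called in SKNO-1 rose or fell without either DMSO library of SKNO-1 is therefore also given. The tests of the difference between the lines were also refitted without each of them. Counts by promoter motif, of calls set side by side in the 2 lines and over other gene lists were not recomputed.

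In U-937 the members moved mostly upwards, and most under the combination. After the filter on low counts, 41 of the 45 members were tested in U-937, and EPSTI1, IFI27, IFI44L and IFITM3 were not. With ATRA, 27 were higher and 3 lower than in DMSO, against 21.7% of all 17717 genes higher and 20.1% lower (41.8% in either direction). With Corin, 16 were higher and 2 lower, against 8.55% and 4.40% of all genes (12.9% in either direction). With both agents, 30 were higher and 4 lower, against 33.1% and 32.2% (65.3% in either direction). The median log2 fold change of the tested members was 0.78, 0.35 and 1.48, beside 0.02, 0.00 and 0.03 over all genes. The 3 comparisons share the same 2 DMSO libraries. Without either of these libraries fewer members were called in each comparison, and the share of all genes called fell too. In these bulk samples, more cells that express a gene and more RNA per cell cannot be told apart. The summed level of 6 myeloid markers was 475 to 492 CPM in the DMSO libraries, 817 to 851 with ATRA, 2230 to 2660 with Corin and 3110 to 3350 with both. The sums with Corin and with both were mostly LYZ, whose group mean was 230 CPM in the DMSO libraries, 282 under ATRA, 2150 under Corin and 2670 under the pair. CD68 had means of 34.5, 274, 81.4 and 315 CPM in the same order. The means of the other 4 followed different patterns: CEBPA was at 132, 157, 118 and 103 CPM, CD33 at 72.1, 94.3, 73.7 and 118, SPI1 at 13.9, 26.9, 17.7 and 27.8, and MPO at 0.356 or less. Their part in the members' changes was not tested.

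In SKNO-1 the called members were mostly higher with Corin and with both agents, and about as often higher as lower with ATRA. Here 42 of the 45 members were tested, and IFI27, IFI44L and OAS2 were not. With ATRA, 6 were higher and 5 lower, against 2.96% and 3.79% of all 17479 genes (6.75% in either direction). Leaving out either DMSO library raised the number of members called, and the share of all genes called rose as well. With Corin, 19 were higher and 4 lower, against 20.5% and 17.3% of all genes (37.9% in either direction). With both agents, 21 were higher and 9 lower, against 24.7% and 22.0% (46.7% in either direction). For Corin and for both agents, too, more members and a larger share of all genes were called without either DMSO library. The median log2 fold changes were -0.14, 0.35 and 0.51, beside 0.01, 0.00 and 0.05 over all genes. These 3 comparisons, too, share their DMSO libraries. The same 6 myeloid markers summed to 2820 to 3870 CPM with DMSO, 3750 to 4080 with ATRA, 2230 to 2370 with Corin and 2960 to 3030 with both. That sum is mostly MPO, with group means of 3140, 3740, 1820 and 2410 CPM, and hides the other markers. LYZ was at 61.9, 47.1, 316 and 382 CPM in the same order, and CD68 at 5.71, 14.2, 33.6 and 56.2. Their part in the result was not tested.

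**Figure D1:**
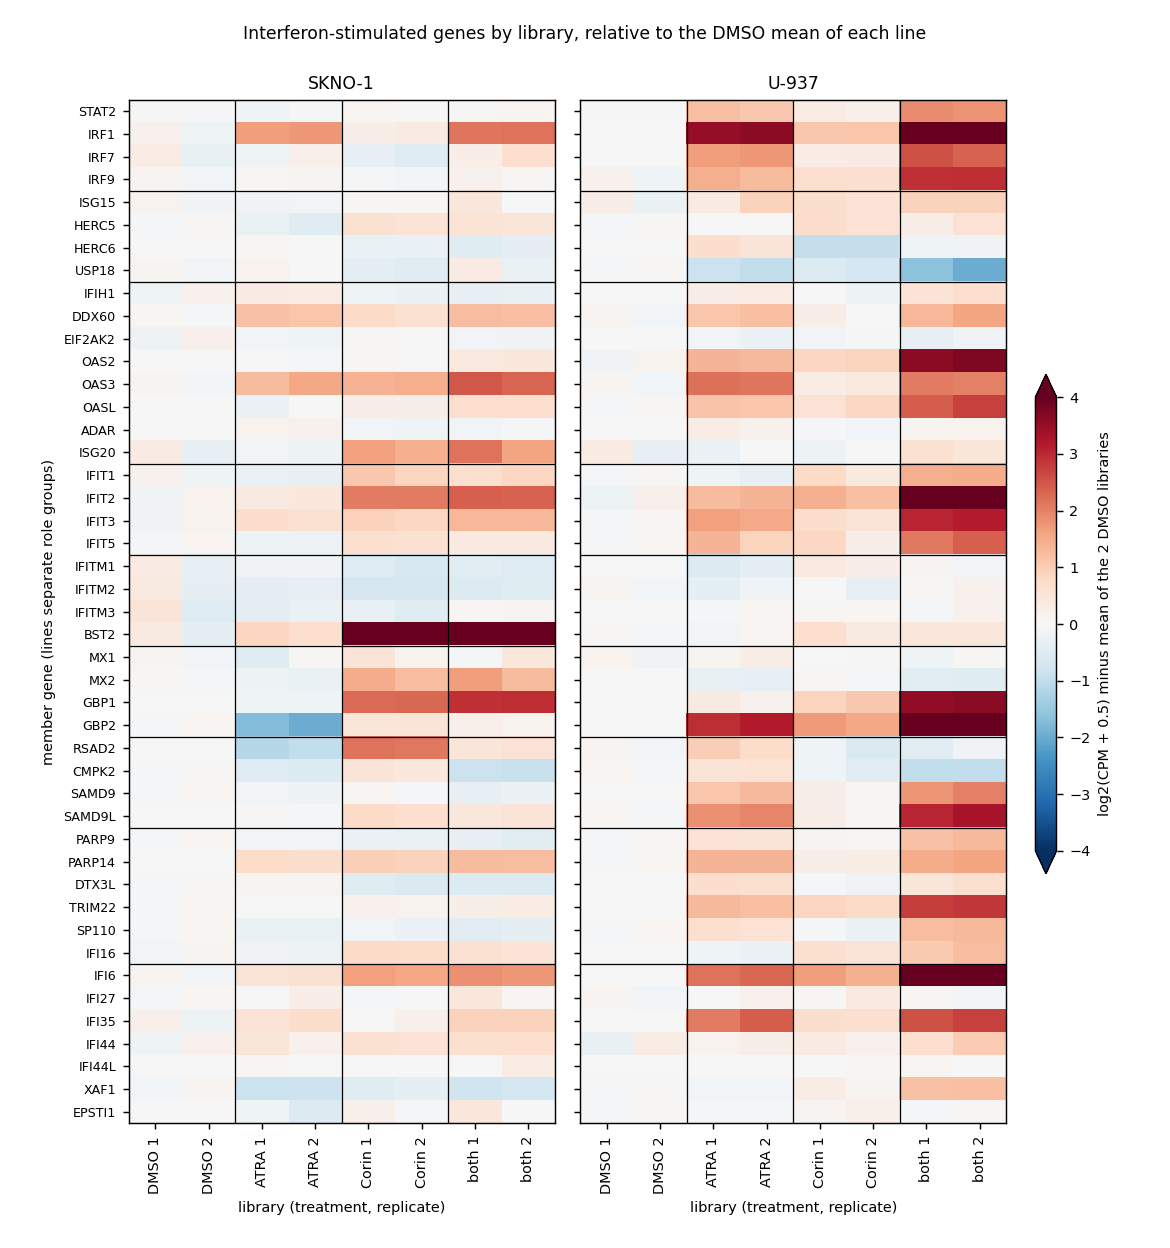
Heat map of the 45 members (rows, in role groups) in the 16 libraries (columns), coloured by log2(CPM + 0.5) minus the mean of the 2 DMSO libraries of the same line. Red cells crowd the combination columns of U-937, where 30 members were called higher, while the SKNO-1 columns hold red and blue cells side by side.

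**Figure D2:**
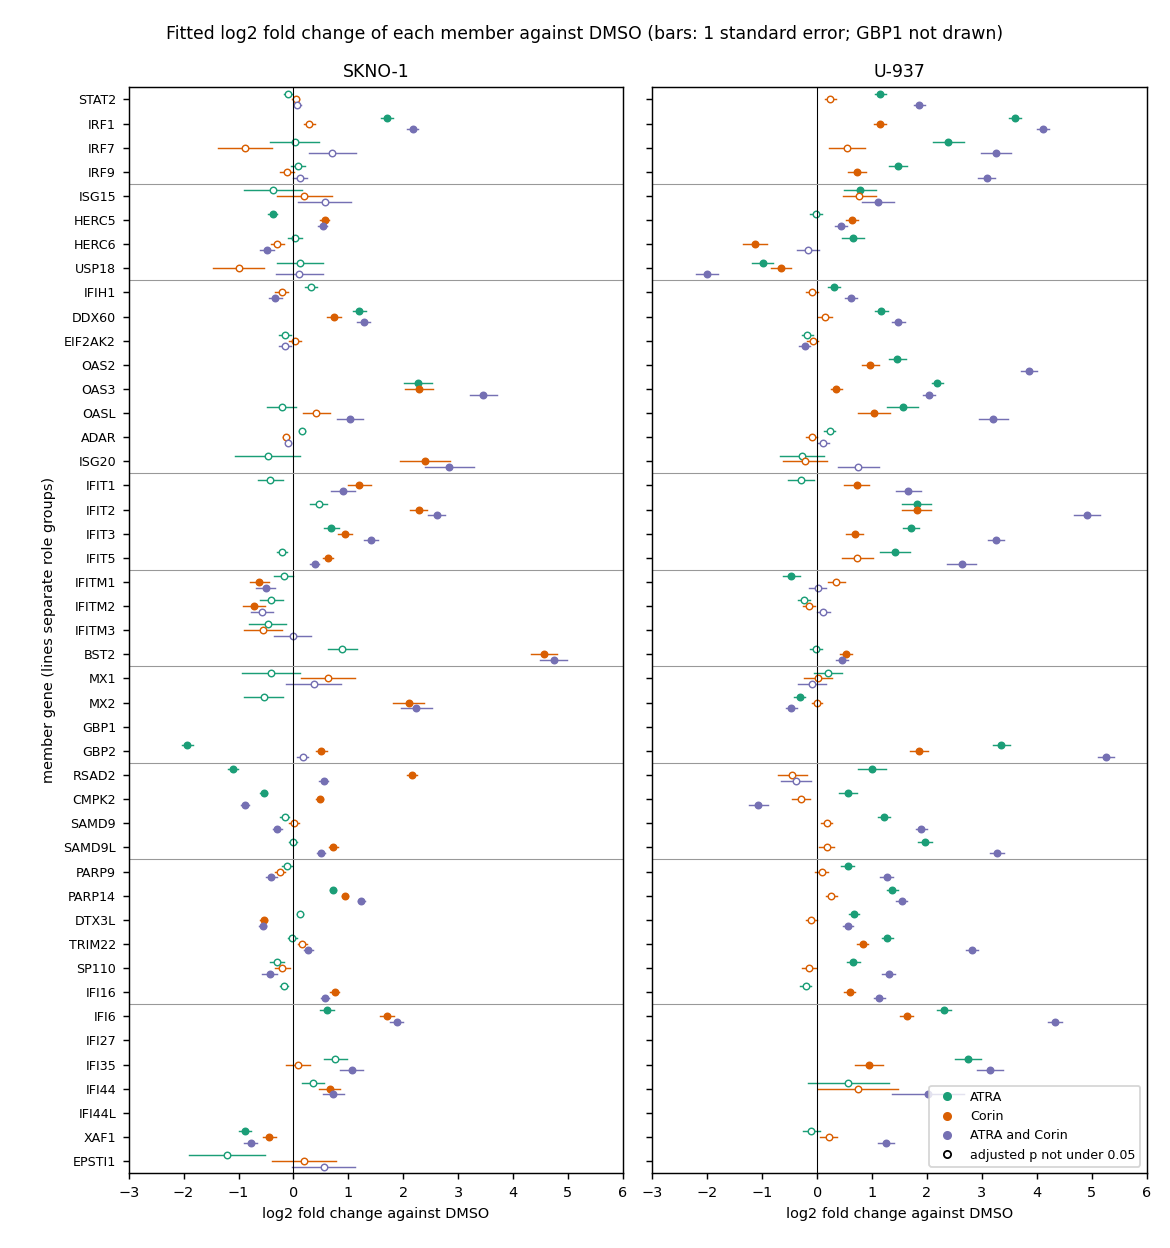
Fitted log2 fold change of each tested member against DMSO in SKNO-1 and U-937, with 1 SE as bars; filled points have an adjusted p under 0.05. GBP1 is left out because 2 of its groups had 0 counts. BST2 stands out in SKNO-1, and IFIT2, GBP2, IFI6 and IRF1 in U-937.

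In U-937 all 4 transcription factors of the pathway were called higher with ATRA and with the combination, against 21.7% and 33.1% of all genes. With Corin alone, 2 of the 4 were called higher, against 8.55% of all genes. IRF1, an interferon-induced activator, was at 9.08 and 8.75 CPM in the DMSO libraries of U-937, at 107 and 111 with ATRA, at 19.5 and 19.9 with Corin and at 157 and 152 with both. The groups do not overlap, and the fold was 12.2 with ATRA (log2 3.6, SE 0.109, adjusted p = 1.02e-17), 2.21 with Corin (adjusted p = 3.54e-08) and 17.3 with both (adjusted p = 2.52e-19). In SKNO-1, IRF1 was at 25.3 and 20.1 CPM with DMSO, 72.7 and 75.6 with ATRA, 27.0 and 28.3 with Corin and 102 and 103 with both. It rose 3.27-fold with ATRA (adjusted p = 6.98e-05) and 4.51-fold with both (adjusted p = 5.73e-06), and under Corin alone its log2 change of 0.29 did not pass (adjusted p = 0.0682). IRF1 was the only one of the 4 factors called in SKNO-1.

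IRF9, the DNA-binding subunit of ISGF3, was at 3.76 and 2.92 CPM with DMSO in U-937, 9.87 and 8.62 with ATRA, 5.53 and 5.45 with Corin and 28.4 and 28.9 with both. Each treated pair lay above the DMSO pair, and IRF9 rose 8.54-fold under the combination (log2 3.09, SE 0.157, adjusted p = 2.16e-14). In SKNO-1 all 8 libraries lay between 6.67 and 8.35 CPM, with adjusted p of 0.803, 0.559 and 0.482 for ATRA, Corin and both. IRF7, the factor that amplifies interferon production, was scarce. In U-937 it was at 0.564 and 0.543 CPM with DMSO, 2.84 and 3 with ATRA, 0.798 and 0.816 with Corin and 5.71 and 4.95 with both. It rose 5.25-fold with ATRA (adjusted p = 3.01e-07) and 9.58-fold with both (adjusted p = 3.02e-10), while its SKNO-1 libraries ranged from 0.323 to 1.38 CPM without a call. STAT2, the ISGF3 subunit, rose 2.22-fold with ATRA and 3.62-fold with both in U-937, and its log2 changes in SKNO-1 were -0.10 to 0.07 without a call.

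The ISG15 system, which links the small protein ISG15 to other proteins and removes it again, had members that went opposite ways. USP18 removes ISG15 and also dampens signalling at the interferon receptor. U-937 held it at 8.49 and 9.20 CPM with DMSO, 4.63 and 4.25 with ATRA, 5.88 and 5.29 with Corin and 2.51 and 1.86 with both. USP18 fell in each comparison, and by the most under the combination, where it was 4.02-fold lower (log2 -2.01, SE 0.203, adjusted p = 5.91e-09). The call with Corin (adjusted p = 0.0184) was lost without either DMSO library of U-937 or without Corin replicate 2. In SKNO-1, USP18 was at 0.235 to 0.779 CPM and not called.

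ISG15 itself was low in both lines. Its level in U-937 was 1.69 and 0.984 CPM with DMSO, 1.76 and 2.88 with ATRA, 2.42 and 2.16 with Corin and 2.90 and 2.92 with both. It rose under the combination (log2 1.11, SE 0.298, adjusted p = 0.00217), a call lost without DMSO replicate 2. Its call with ATRA (adjusted p = 0.0386) was lost in 7 of 16 alternatives. HERC6, a ligase of the HERC family, fell with Corin in U-937, from 4.04 and 4 CPM to 1.84 and 1.83 (log2 -1.13, adjusted p = 0.000709). With ATRA it was at 6.78 and 5.92 CPM and with both at 3.49 and 3.64, the latter not called. HERC5, the main ligase for ISG15 in human cells, rose with Corin in both lines, by log2 0.57 in SKNO-1 and 0.64 in U-937. Its lower call with ATRA in SKNO-1 (log2 -0.38, adjusted p = 0.0385) was lost in 8 of 16 alternatives.

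Among the sensors of double-stranded RNA and the enzymes that act on it, OAS2, OAS3 and OASL had the largest changes. The OAS proteins make the messenger 2-5A that activates the nuclease RNase L. OAS2 in U-937 was at 2.82 and 3.53 CPM with DMSO, 8.88 and 8.53 with ATRA, 6.15 and 6.27 with Corin and 43.4 and 48.4 with both. The combination raised it 14.5-fold (log2 3.86, SE 0.147, adjusted p = 1.15e-16), well above the levels of either agent alone. In SKNO-1, OAS2 had 2 counts over both DMSO libraries and 13 over both combination libraries, a ratio of 7.21 (exact 95% interval 1.63 to 65.8, counting error only), and was not tested.

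OAS3 was scarce in SKNO-1 and abundant in U-937. In SKNO-1 it was at 0.434 and 0.316 CPM with DMSO, 1.59 and 2.03 with ATRA, 1.77 and 1.91 with Corin and 4.36 and 3.93 with both. It rose 4.82-fold, 4.89-fold and 11-fold (adjusted p = 0.00151, 0.000399 and 3.05e-05). In U-937 it went from 27.4 and 23.2 CPM to 118 and 113 with ATRA, 31.3 and 33.4 with Corin and 105 and 103 with both, and adding Corin to ATRA made no called difference (log2 -0.15, adjusted p = 0.226). OASL, a relative without the 2-5A activity, was at 0.720 and 0.780 CPM with DMSO in U-937, 2.23 and 2.22 with ATRA, 1.38 and 1.73 with Corin and 6.18 and 7.73 with both, and rose 9.23-fold with both (adjusted p = 1.88e-10). The entry with the OAS1 identifier changed more than any of them: it was at 1.16 and 1.32 CPM with DMSO in U-937, 85.2 and 80.2 with ATRA, 8.73 and 7.71 with Corin and 418 and 467 with both. That is a fold of 66.6, 6.64 and 356 (log2 8.48, SE 0.153, adjusted p = 9.02e-22 for both). In SKNO-1 it had only 3 counts over the DMSO pair, 49 with Corin and 89 with both, ratios of 17.1 (exact 95% interval 5.53 to 86) and 32.9 (10.9 to 163).

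Among the other RNA-directed members, DDX60, a helicase, was higher with ATRA in both lines (log2 1.2 in SKNO-1 and 1.17 in U-937). IFIH1, the RNA sensor MDA5, rose with both agents in U-937 (log2 0.62, adjusted p = 2.01e-05) and was called lower in SKNO-1 (log2 -0.33, adjusted p = 0.0492), a call lost in 11 of 16 alternatives. ISG20, an exonuclease, rose in SKNO-1 with Corin, from 0.578 and 0.184 CPM to 2.17 and 1.82, and with both, to 3.33 and 2.07 (adjusted p = 0.00465 and 0.00145). ADAR, the RNA-editing deaminase, and EIF2AK2, the kinase PKR, were abundant in all libraries. Of these, only EIF2AK2 had a call against DMSO, a log2 change of -0.23 with both agents in U-937 (adjusted p = 0.0410), lost in 8 of 16 alternatives.

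The IFIT proteins bind foreign RNA and block its translation, and their genes lie side by side on chromosome 10. Reads that fit several IFIT genes were divided by the authors' counting, so single values carry that uncertainty. IFIT2 in U-937 was at 0.532 and 0.882 CPM with DMSO, 2.40 and 2.55 with ATRA, 2.69 and 2.25 with Corin and 19.7 and 22.9 with both. It rose 3.51-fold, 3.52-fold and 30.1-fold (adjusted p = 4.23e-06, 1.86e-05 and 5.80e-15). SKNO-1 held it at 1.91 and 2.47 CPM with DMSO, 2.94 and 3.11 with ATRA, 10.6 and 10.8 with Corin and 13.6 and 13.3 with both. There the rise was 4.86-fold with Corin and 6.09-fold with both, and the ATRA change of log2 0.46 was not called (adjusted p = 0.160).

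IFIT3, whose promoter is printed above, was called higher in all 6 comparisons against DMSO. The U-937 libraries had it at 3.54 and 3.73 CPM with DMSO, 12.3 and 11.4 with ATRA, 6.23 and 5.39 with Corin and 33.8 and 35.6 with both (log2 3.25, SE 0.145, adjusted p = 1.91e-15 for both). Its level in SKNO-1 was 4.54 and 5.53 CPM with DMSO, 8.43 and 7.84 with ATRA, 10.0 and 9.34 with Corin and 13.4 and 13.4 with both (log2 1.41, SE 0.133, adjusted p = 0.000118). Its ATRA call in SKNO-1 (log2 0.69, adjusted p = 0.0193) was lost in 7 of 16 alternatives, and the Corin call in U-937 (adjusted p = 0.00355) without Corin replicate 1. IFIT5 rose with both agents in U-937, from 1.22 and 1.39 CPM to 7.34 and 8.90, with 4.14 and 2.85 under ATRA and 2.69 and 1.60 under Corin (log2 2.63, SE 0.268, adjusted p = 6.56e-09 for both). IFIT5 in SKNO-1 started higher, at 19.8 and 22.0 CPM, was at 18.1 in each ATRA library, at 32.9 and 31.8 with Corin and at 27.6 and 27.4 with both. IFIT1 was not called with ATRA in either line and rose with Corin and with both in each.

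Tetherin, the product of BST2, holds budding virus particles on the cell surface, and BST2 gave the steepest change against DMSO in SKNO-1 after GBP1. Its SKNO-1 levels were 2.23 and 1.13 CPM with DMSO, 3.36 and 2.84 with ATRA, 41.5 and 37.2 with Corin and 43.3 and 45.6 with both. BST2 rose 23.6-fold with Corin (log2 4.56, SE 0.240, adjusted p = 1.28e-05) and 26.6-fold with both (adjusted p = 6.73e-06), and both calls held in all 16 alternatives. In U-937 BST2 was already at 61.6 and 58.2 CPM with DMSO, at 55.2 and 62.8 with ATRA, at 96.3 and 77.0 with Corin and at 81.3 and 82.9 with both. The rise with Corin there was 1.45-fold (adjusted p = 0.00141), lost without Corin replicate 1. With Corin, then, the SKNO-1 libraries came to 37.2 CPM or more, still under the DMSO level of U-937.

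IFITM proteins sit in membranes and hinder virus entry. Their genes are close relatives on chromosome 11, so the division of shared reads touches them as well. IFITM1 in SKNO-1 was at 109 and 70.3 CPM with DMSO, 78.6 and 79.4 with ATRA, 60.5 and 56.0 with Corin and 65.1 and 61.3 with both. The 2 DMSO libraries differ by more than the treated groups do among themselves, and the call with Corin (log2 -0.62, adjusted p = 0.0239) ran from log2 -0.92 to -0.30 over the alternatives and was lost in 3 of 16. IFITM2 was at 60.2 and 35.6 CPM with DMSO in SKNO-1, 35.8 and 37.0 with ATRA, 29.1 in each Corin library and 31.8 and 32.8 with both, and its Corin call (log2 -0.72, adjusted p = 0.0257) was lost in 3 of 16. In U-937, IFITM1 was at 5.65 to 11.1 CPM and IFITM2 at 54.3 to 77.6, and the only call against DMSO was a lower IFITM1 with ATRA (log2 -0.47, adjusted p = 0.0215), which 3 of 16 alternatives lost. IFITM3 was at 2.05 to 4.69 CPM in SKNO-1 and at most 0.103 CPM in U-937.

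The GTPases of the GBP and MX families attack intracellular pathogens and viral capsids. GBP2 went opposite ways with ATRA in the 2 lines. The SKNO-1 libraries had it at 24.1 and 26.4 CPM with DMSO, 7.2 and 6.05 with ATRA, 35.6 and 36.0 with Corin and 28.8 and 28.0 with both. GBP2 was 3.81-fold lower with ATRA (log2 -1.93, SE 0.107, adjusted p = 3.88e-05), 1.42-fold higher with Corin and not called with both (adjusted p = 0.201). For U-937 the levels were 2.07 in each DMSO library, 19.6 and 22.6 with ATRA, 7.93 and 6.99 with Corin and 72.1 and 86.5 with both. There it rose 10.2-fold, 3.61-fold and 38.3-fold (adjusted p = 2.03e-14, 1.35e-08 and 9.66e-19), and none of these calls was lost in an alternative.

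GBP1, a neighbour of GBP2 on chromosome 1, had 0 counts in both DMSO libraries of U-937. It was at 0.138 and 0.0607 CPM with ATRA, 0.426 and 0.555 with Corin and 5.33 and 5.57 with both, at least 2.07-fold, 9.90-fold and 111-fold higher when DMSO is set to a group floor of 3 counts. For SKNO-1 the levels were 0.0578 and 0.0790 CPM with DMSO, had 0 counts with ATRA and was at 2.22 and 2.32 CPM with Corin and 3.77 and 3.87 with both (log2 5.72, SE 0.303, adjusted p = 1.91e-05 for both). MX2, which blocks the nuclear entry of some viruses, rose in SKNO-1 from 0.492 and 0.421 CPM to 2.19 and 1.73 with Corin and 2.52 and 1.80 with both, while ATRA left it at 0.330 and 0.297 without a call. In U-937 it was at 139 and 145 CPM with DMSO, 115 and 112 with ATRA, 149 and 135 with Corin and 103 and 102 with both, and fell with both (log2 -0.47, SE 0.0944, adjusted p = 0.000142). Its fall with ATRA (log2 -0.32, adjusted p = 0.00863) was lost in 3 of 16 alternatives. MX1, the relative usually used as a marker of interferon exposure, stayed under 3 CPM in every library and was not called against DMSO in either line.

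**Figure D3:**
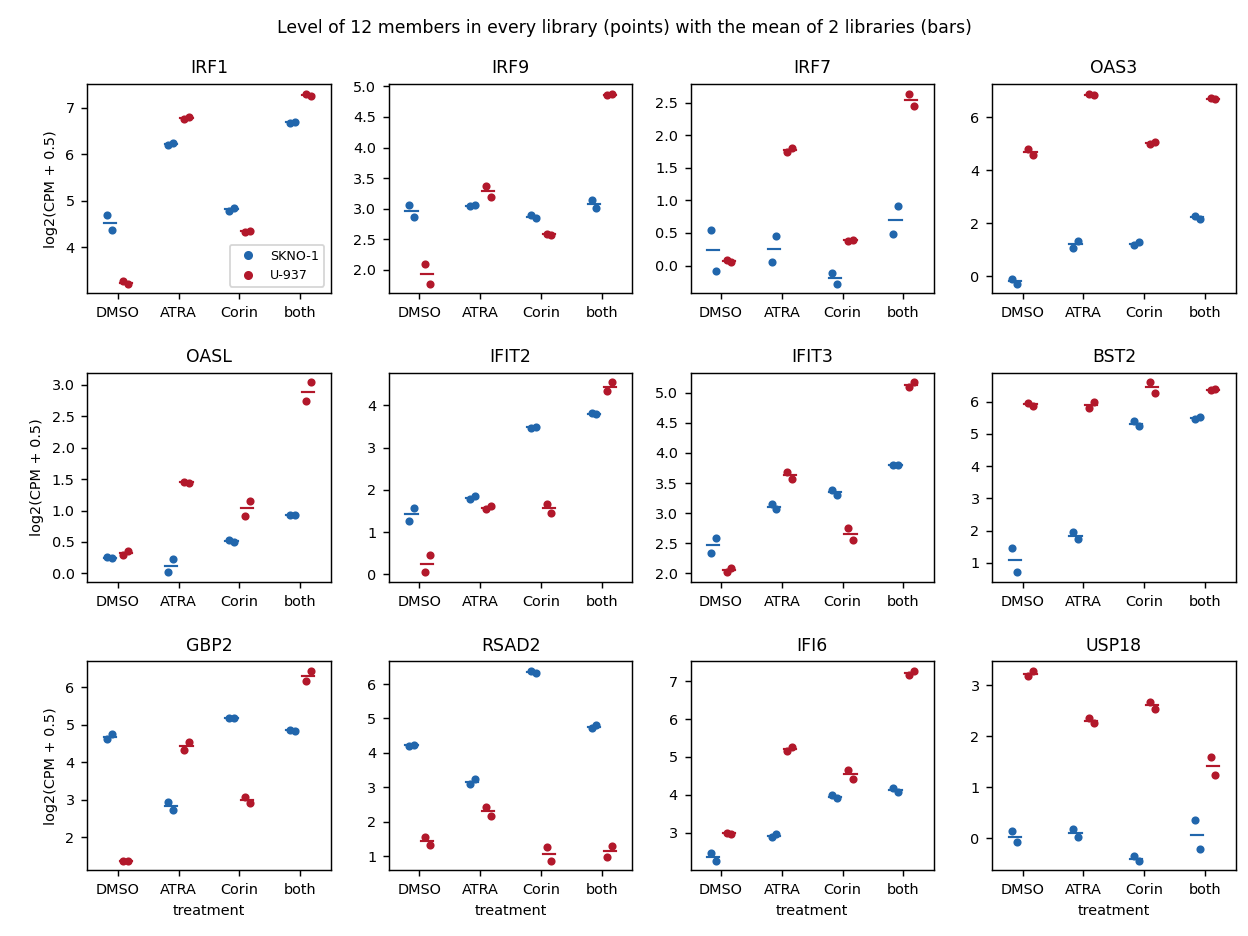
Level of 12 members as log2(CPM + 0.5) in each library of SKNO-1 (blue) and U-937 (red), with the mean of the 2 libraries as a bar. IRF9 lay flat in SKNO-1 between 6.67 and 8.35 CPM and climbed to 28.4 and 28.9 CPM in U-937, GBP2 and RSAD2 went opposite ways with ATRA, and BST2 climbed in SKNO-1 from 2.23 and 1.13 CPM to 41.5 and 37.2 with Corin.

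RSAD2 and CMPK2 overlap head to head on chromosome 2. RSAD2 encodes viperin, which makes a chain-terminating nucleotide from CTP, and CMPK2 is a nucleotide kinase that supplies CTP. Since the strand setting of the counting is not given in the sources used here, reads in the overlap cannot be assigned with certainty. RSAD2 in SKNO-1 was at 18 and 18.2 CPM with DMSO, 7.98 and 8.89 with ATRA, 82.9 and 78.9 with Corin and 25.7 and 27.4 with both. It was 2.14-fold lower with ATRA (adjusted p = 0.000238), 4.48-fold higher with Corin (adjusted p = 3.34e-06) and 1.47-fold higher with both (adjusted p = 0.00117). Adding ATRA to Corin thus lowered RSAD2 (log2 -1.61, SE 0.0827, adjusted p = 2.81e-05). In U-937 the ATRA effect had the other sign: 2.44 and 2.00 CPM with DMSO, 4.88 and 4.01 with ATRA (2.00-fold higher, adjusted p = 0.00274), 1.92 and 1.31 with Corin and 1.48 and 1.96 with both.

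CMPK2 had the same called directions as RSAD2 for the single agents, with 60.7 and 64.7 CPM with DMSO in SKNO-1, 43.9 and 42.6 with ATRA, 89.9 and 85.0 with Corin and 34.4 and 33.5 with both. Under the combination it was lower than under DMSO in both lines, by log2 -0.88 in SKNO-1 and -1.07 in U-937 (adjusted p = 4.53e-05 and 7.89e-06). The neighbours SAMD9 and SAMD9L on chromosome 7 restrict poxviruses and slow cell growth. SAMD9L in U-937 was at 8.24 and 7.30 CPM with DMSO, 28.8 and 31.8 with ATRA, 9.47 and 8 with Corin and 68.4 and 81.3 with both, a 9.62-fold rise with both (log2 3.27, SE 0.131, adjusted p = 2.78e-16). SAMD9 was at 44.4 and 43.7 CPM with DMSO in U-937, 95.5 and 109 with ATRA, 52.3 and 46.7 with Corin and 151 and 178 with both (log2 1.90, SE 0.109, adjusted p = 2.10e-13). In SKNO-1, SAMD9L rose with Corin (log2 0.73, adjusted p = 0.000265), and SAMD9 was lower with both (log2 -0.29, adjusted p = 0.0249), a call lost in 5 of 16 alternatives.

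PARP9 and DTX3L, which form an ADP-ribosylating ubiquitin ligase, start from overlapping positions on opposite strands of chromosome 3, and the same ISRE lies in both windows. In U-937 both rose with ATRA (log2 0.56 and 0.67) and with the combination (1.27 and 0.56). In SKNO-1 both were lower with the combination (log2 -0.40 and -0.56, adjusted p = 0.00818 and 0.000256). PARP14, a related enzyme nearby, rose in SKNO-1 from 50.5 and 51.1 CPM to 84.3 and 82.9 with ATRA, 98.1 and 97.6 with Corin and 122 and 119 with both (log2 1.24, SE 0.0554, adjusted p = 3.48e-06). U-937 held it at 55.3 and 60.9 CPM with DMSO, 151 and 150 with ATRA, 68.4 and 70.8 with Corin and 162 and 175 with both, and the Corin change of log2 0.26 was not called (adjusted p = 0.0799).

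TRIM22, an antiviral ubiquitin ligase, was at 17.1 and 17.0 CPM with DMSO in U-937, 42.9 and 40.1 with ATRA, 31.1 and 29.6 with Corin and 118 and 123 with both. The rise was 7.07-fold with both (adjusted p = 8.49e-17). In SKNO-1 its 8 libraries lay between 22.8 and 29.4 CPM, and the call with both (log2 0.27, adjusted p = 0.0266) was lost in 10 of 16 alternatives. SP110, a nuclear body protein, rose in U-937 from 11.9 and 13.1 CPM to 20.4 and 19.0 with ATRA and 29.9 and 31.7 with both, and was at 11.9 and 10.6 with Corin. In SKNO-1 it was at 5.08 to 7.58 CPM, with a lower call under both (adjusted p = 0.0299) that 9 of 16 alternatives lost. IFI16, a DNA sensor, rose with Corin in both lines (log2 0.75 and 0.59) and was not called with ATRA in either.

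Of the remaining members, IFI6, a mitochondrial and reticulum protein that protects against cell death, was called higher in all 6 comparisons. Its level in U-937 was 7.45 and 7.33 CPM with DMSO, 35.2 and 38 with ATRA, 24.8 and 20.8 with Corin and 144 and 154 with both (20.1-fold, log2 4.33, SE 0.124, adjusted p = 6.58e-19). SKNO-1 held it at 5 and 4.27 CPM, 6.87 and 7.30, 15.5 and 14.5, and 17.6 and 16.5 in the same order (3.68-fold with both, adjusted p = 2.29e-05). Its ATRA call in SKNO-1 (adjusted p = 0.0249) was lost in 7 of 16 alternatives. IFI35 rose in U-937 from 0.939 and 0.984 CPM to 5.65 and 7.32 with ATRA, 1.89 and 1.80 with Corin and 7.96 and 9.14 with both (8.86-fold, adjusted p = 2.67e-11). Its level in SKNO-1 was 2.28 and 1.61 CPM with DMSO, 3.12 and 3.43 with ATRA, 1.88 and 2.26 with Corin and 4.05 in each library with both, and only the last was called (adjusted p = 0.00405).

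XAF1, a proapoptotic partner of XIAP, went opposite ways under the combination. The SKNO-1 libraries had it at 16 and 18.5 CPM with DMSO, 9.27 and 9.43 with ATRA, 12.2 and 13.2 with Corin and 9.69 and 10.4 with both, lower in each comparison (log2 -0.78, SE 0.116, adjusted p = 0.00110 for both). The U-937 libraries had it at 6.33 and 6.65 CPM, 5.98 and 6.01, 8.01 and 7.02, and 15.3 and 15.6 in the same order, and rose with both (log2 1.25, SE 0.151, adjusted p = 1.16e-07). IFI27 and IFI44L, which rank among the strongest interferon-induced genes in blood, were close to 0 throughout: IFI27 was at most 0.294 CPM and IFI44L at most 0.120 CPM in the 16 libraries. IFI44 rose with both agents in U-937, to 0.533 and 0.825 CPM (adjusted p = 0.00908), a call that 3 of 15 alternatives lost. EPSTI1 stayed under 0.6 CPM in SKNO-1 and under 0.1 CPM in U-937.

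The question whether the lines answered differently was put to the difference itself, in a fit of all 16 libraries with 43 members tested. The ATRA effect was larger in U-937 than in SKNO-1 for 23 members and smaller for 1, against 10.6% and 8.80% of all 19872 genes. That 1 was BST2 (adjusted p = 0.0272), whose call 5 of 24 alternatives lost. The 4 with the largest called difference, by log2, were GBP1 (9.13, a value that depends on the fit's prior count because 2 groups had 0 counts), GBP2 (5.32, SE 0.200), IRF7 (2.40, SE 0.492) and RSAD2 (2.14, SE 0.226). For Corin, 7 members were higher and 10 lower in U-937 relative to SKNO-1, against 5.28% and 7.49% of all genes. The share of higher among the called was 41.2% for members and 41.3% for all genes, and without SKNO-1 DMSO replicate 2 it was 52.6% and 57.7%. The largest differences were those of BST2 (log2 -4.03, SE 0.239), ISG20 (-2.62, SE 0.601), RSAD2 (-2.61, SE 0.242) and MX2 (-2.10, SE 0.248). Leaving out SKNO-1 Corin replicate 2 or U-937 DMSO replicate 1 lowered the count of 17 the most, and lowered the share of all genes called. The count also fell without most of the other libraries. Under the combination, 24 members were higher and 6 lower in U-937, against 17.9% and 22.7% of all genes, led by GBP2 (log2 5.14, SE 0.193), GBP1 (4.79, again dependent on the prior count), BST2 (-4.24, SE 0.239) and IRF9 (3.02, SE 0.207).

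**Figure D4:**
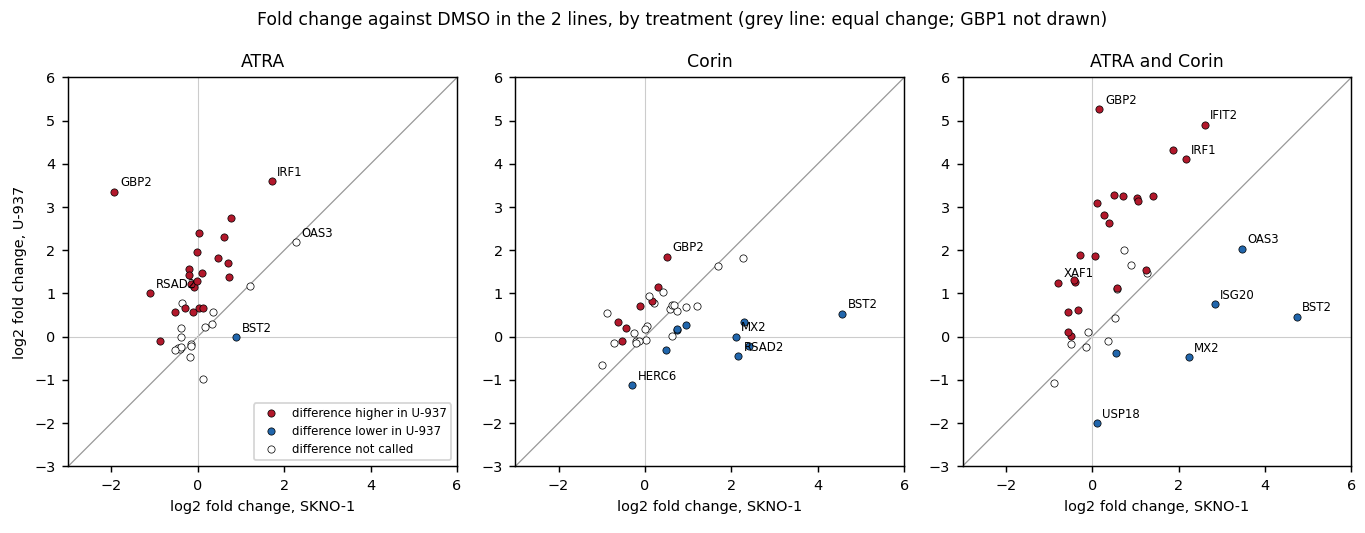
Log2 fold change against DMSO in SKNO-1 (x axis) and U-937 (y axis) for each member tested in both lines, in 3 panels by treatment; red and blue points have a called difference between the lines. GBP2 lies in the upper left with ATRA and BST2 far to the right with Corin, and most points of the combination panel lie above the line of equal change.

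Set side by side, the calls in each line show which members moved alike. Among the 40 members tested in both lines, 6 were higher with ATRA in both (IRF1, DDX60, OAS3, IFIT3, PARP14 and IFI6), against 2.20% of the 15448 genes tested in both. Another 3 were lower in SKNO-1 and higher in U-937 (GBP2, RSAD2 and CMPK2), 7.50% against 0.932%. With Corin, 10 were higher in both lines, 25.0% against 4.76%, and 0 had opposite calls, against 0.719% of all genes. With both agents, 18 were higher in both, 45.0% against 13.5%, and 7 had opposite calls, 17.5% against 6.92%. Of these 7, IFIH1, SAMD9, PARP9, DTX3L, SP110 and XAF1 were lower in SKNO-1 and higher in U-937, and MX2 was higher in SKNO-1 and lower in U-937. Among these, IFIH1, SAMD9 and SP110 lost their SKNO-1 call in 11, 5 and 9 of 16 alternatives.

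Whether the agents together gave more than the sum of their single log2 effects was tested as a departure from additivity. In U-937, 15 members were above the sum and 3 below, against 8.11% and 15.3% of all genes. The 4 largest were OAS2 (log2 1.43, SE 0.204, adjusted p = 9.35e-06), CMPK2 (-1.33, SE 0.235, adjusted p = 0.000138), IFIT2 (1.29, SE 0.337, adjusted p = 0.00642) and IFIT1 (1.23, SE 0.319, adjusted p = 0.00578). The IFIT2 call was lost without DMSO replicate 2. IRF9, STAT2 and TRIM22 were among those above the sum (log2 0.91, 0.46 and 0.71), and IRF1 and OAS3 fell short of it (log2 -0.64 and -0.50). In SKNO-1, 1 member was above the sum, GBP2 (log2 1.59, SE 0.145, adjusted p = 0.00527), and 1 below, CMPK2 (-0.83, SE 0.0957, adjusted p = 0.0175), against 0.315% and 0.149% of all genes. That count of 2 rose when either library of the SKNO-1 DMSO pair was left out, and the share of all genes called rose too. Both the count and that share fell when any 1 of the libraries given an agent was left out.

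**Figure D5:**
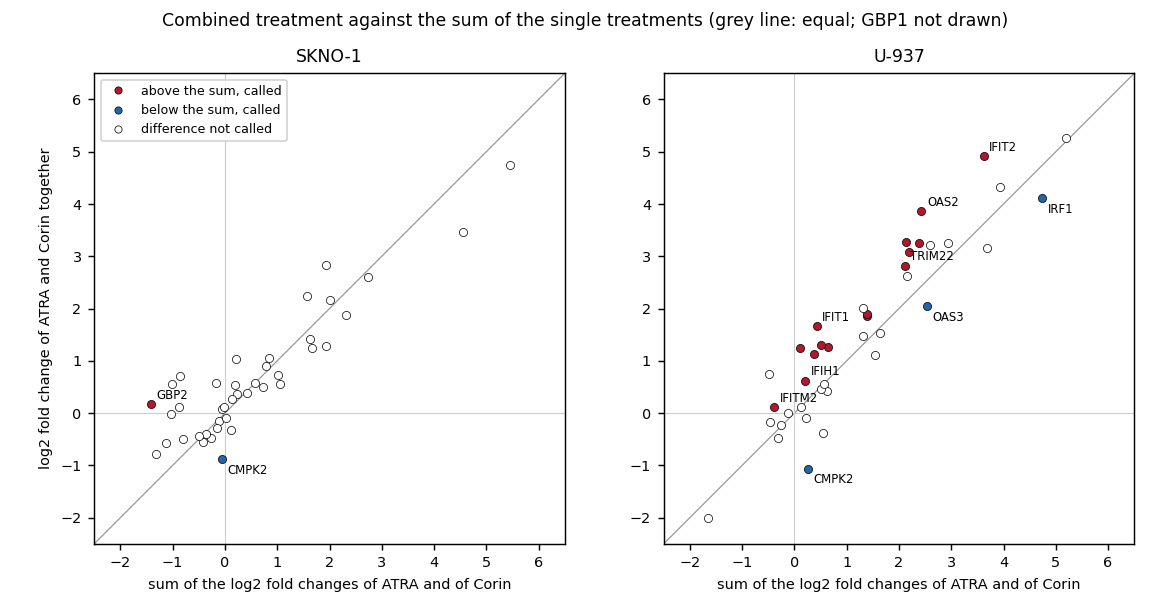
Log2 fold change of ATRA and Corin together (y axis) against the sum of the log2 fold changes of each alone (x axis), per member, in SKNO-1 and U-937; coloured points have a called departure. In U-937, 15 members lie above the line of equality with a call, among them OAS2 and IFIT2, and 3 below it.

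Against ATRA alone, the combination in U-937 raised 27 members and lowered 4, against 22.5% and 24.9% of all genes (47.4% in either direction). Against Corin alone it raised 28 and lowered 3, against 29.9% and 30.6%. In SKNO-1 it raised 19 and lowered 6 relative to ATRA, against 23.0% and 21.8% of all genes. More members and a larger share of all genes were called without either DMSO library. Relative to Corin it raised 6 (DDX60, GBP1, IFI35, IRF1, OAS3 and PARP14) and lowered 2 (RSAD2 and CMPK2), against 4.82% and 5.60%. This last count of 8 rose without either DMSO library of SKNO-1 and fell without any 1 of the libraries given an agent. The share of all genes called moved the same way. The GBP1 call, which lay just under the threshold, was lost in 9 of 16 alternatives.

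The lines differed before any agent was given. With DMSO, 12 of the 43 members tested were higher and 22 lower in U-937 than in SKNO-1, against 31.7% and 33.1% of all genes (64.8% in either direction). MX2 was higher in U-937 by log2 8.14 (SE 0.162), OAS2 by 6.55 (SE 0.392) and OAS3 by 5.95 (SE 0.175), and IFITM3 was lower by log2 -6.65 (SE 0.662). OAS2 had only 2 counts over the DMSO pair of SKNO-1, and IFITM3 only 2 over that of U-937. The sizes given for OAS2 and IFITM3 therefore depend on the prior count, and their SE understates the counting error. Scaled by transcript length (TPM), IFITM1 led the members in the DMSO libraries of SKNO-1 with 135 and 125 TPM, and IFITM2 those of U-937 with 140 and 127. Members at 10 TPM or more numbered 10 of 45 in SKNO-1 and 11 in U-937 with DMSO, and 13 and 23 under the combination. There IFI6 had become the highest of the 45 in U-937, at 149 and 143 TPM.

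The genes upstream of the members were read from lists that hold none of them. Interferon genes were nearly silent: over 22 listed interferon genes, each group had 1 to 8 counts in all, no gene had more than 5 counts in a library, and none could be tested in either line. A group total of 3 counts stands for 0.0413 to 0.0489 CPM, so lower levels would not have been detectable. Interferon protein, or interferon in the medium, was not measured. Of the 6 receptor chains, 5 were tested. With both agents 4 were higher in U-937, with IL10RB at log2 1.78, IFNGR1 at 1.49 and IFNAR2 at 1.28, and 3 were higher in SKNO-1, against 33.1% and 24.7% of all genes.

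JAK2, TYK2 and JAK1 all rose under the combination in U-937 (log2 1.84, 1.31 and 0.88), where 33.1% of all genes were higher. JAK2 in U-937 was at 25.5 and 24.6 CPM with DMSO, 46.2 and 48.9 with ATRA, 16.9 and 18.4 with Corin and 87.7 and 91.6 with both, lower with Corin alone and above the sum with both (departure log2 1.42, adjusted p = 5.97e-08). In the fit of all 16 libraries, the 3 kinases were each called higher in U-937 relative to SKNO-1 for the effect of ATRA and for that of both agents. Of all genes, 10.6% and 17.9% were called higher in these comparisons.

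Of 16 upstream sensors and adaptors, 15 were tested in U-937, and 12 were higher with both agents, against 33.1% of all genes. TLR8, a receptor for single-stranded RNA, went from 0.0626 and 0.102 CPM to 18.4 and 22.1 (log2 7.89), AIM2, a DNA sensor, from 0.188 and 0.204 to 25.1 and 25.5 (log2 6.99), and TLR3 from 0.188 and 0.170 to 1.92 and 2.89 (log2 3.71). In SKNO-1, 8 of 13 tested were higher and 1 lower with both, against 24.7% and 22.0% of all genes, and AIM2 was at most 0.114 CPM. Of 5 negative regulators of the receptor, SOCS3 rose with ATRA in both lines (log2 1.32 in SKNO-1 and 3.02 in U-937), and SOCS1 rose with both agents in each.

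Of 24 further interferon-responsive genes, 16 were higher and 1 lower with both agents in U-937, against 33.1% and 32.2% of all genes. In SKNO-1, 8 of 23 tested were higher and 4 lower, called in 52.2% against 46.7% of all genes, a share near the background. BATF2 rose in U-937 from 0.157 and 0.543 CPM to 13.4 in each library with both (log2 5.27), and IFI30, a lysosomal reductase, from 61.0 and 64.0 to 984 and 1070 (log2 4.04). UBA7, the activating enzyme for ISG15, went from 6.61 and 4.24 CPM to 53.6 and 56.8 with ATRA (log2 3.34). Of 12 genes that lean towards interferon gamma, 9 were tested in U-937, with 7 higher and 1 lower under both agents, against 33.1% and 32.2% of all genes. CIITA, the master factor of MHC class II, fell with ATRA in both lines (log2 -0.75 in SKNO-1 and -3.22 in U-937) and rose with Corin in both (0.76 and 1.48). GBP4 in SKNO-1 rose from 1.10 and 1.11 CPM to 11.4 and 12.2 with ATRA (log2 3.41, SE 0.142, adjusted p = 1.36e-05), where GBP2 fell. CXCL11, a chemokine, stayed at or under 0.825 CPM in U-937 and had 0 counts in SKNO-1.

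Members with and without an ISRE in their promoter window can be compared as a description. In U-937 with both agents, 16 of 21 tested members with an ISRE were higher and 1 lower, with a median log2 change of 1.27. Of 11 without one, 8 were higher and 1 lower, with a median of 1.30, and 33.1% of all genes were higher. In SKNO-1 with Corin, 13 of 23 with an ISRE were higher and 2 lower (median 0.63), and of 11 without one, 3 were higher and 1 lower (median 0.04), beside 20.5% of all genes higher. The medians with and without an ISRE were -0.16 and -0.01 with ATRA in SKNO-1, and 0.55 and 0.07 with both agents there. In U-937 they were 0.67 and 0.66 with ATRA, and 0.35 and 0.21 with Corin. The members without a match include IRF1, IRF9 and STAT2. Many members are also neighbours in the genome: they lie on 16 chromosomes, and 13 neighbouring pairs are under 100 kb apart, so members of a cluster are not independent of each other.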

How the data were processed

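The authors deposited estimated counts per gene and TPM values, made with RSEM; Trimmomatic, STAR, deepTools and DESeq2 are also named, with the build hg38 and no versions, per the submitters' processing notes. The annotation release and the strand setting are not given in the sources used here. The deposited estimated counts were rounded to whole numbers. Of the positive values 20.4% were not whole. TPM values were used as the authors deposited them.

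Genes were kept with filterByExpr and scaled by TMM. Quasi-likelihood models with robust dispersions (edgeR 4.0.16, R 4.3.3) were fitted to the 8 libraries of each line (17479 and 17717 genes) and to all 16 (19872 genes). The scripts were tested on simulated data. With 2 libraries a group, tests of single genes rest on a spread shared across genes. Intervals and floors cover counting error only.

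The members, lists and motifs were chosen with earlier results of these data known. Up to 3 members of each role group are given in every library, those with the largest absolute log2 change against DMSO among members with a mean of at least 1 CPM in that line. For additivity and line differences the 4 largest called are named, and for other lists at most 3 called genes. Gene positions are from GENCODE 44, and promoter sequences from RefSeq (GRCh38.p14); 9 symbols had no window. RIGI, STING1 and WARS1 were found under older names. The authors' 6 tables of DESeq2 comparisons were not used here. Alternatives were DESeq2 1.42.0, library totals, other filters, a replicate block, removal of a GC trend, fits of only the libraries compared, and leaving out each library. One gene of the pathway lists is not reported here.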

Additional observations from a re-analysis of the deposited data

Results flagged for a closer look

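The following 12 results are listed because the effect of the same treatment differed between the lines in a test of that difference (edgeR's quasi-likelihood test, U-937 minus SKNO-1, log2). For ATRA they were GBP1 with 9.13 (adjusted p = 0.00162, a value that depends on the prior count), GBP2 with 5.32 (adjusted p = 3.36e-12), IRF7 with 2.40 (adjusted p = 0.00149) and RSAD2 with 2.14 (adjusted p = 1.42e-06). GBP2 and RSAD2 were called in opposite directions in the 2 lines, and GBP1 had 0 counts with ATRA in SKNO-1 and with DMSO in U-937.

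For Corin they were BST2 with -4.03 (adjusted p = 7.29e-09), ISG20 with -2.62 (adjusted p = 0.00618), RSAD2 with -2.61 (adjusted p = 5.63e-07) and MX2 with -2.10 (adjusted p = 9.99e-06). All 4 rose in SKNO-1, and of these only BST2 also rose in U-937. The ISG20 difference was not called without U-937 DMSO replicate 1.

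For both agents they were GBP2 with 5.14 (adjusted p = 3.94e-13), GBP1 with 4.79 (adjusted p = 0.0143), BST2 with -4.24 (adjusted p = 3.08e-10) and IRF9 with 3.02 (adjusted p = 1.09e-09). The GBP1 difference was not called without U-937 DMSO replicate 1, without U-937 DMSO replicate 2 or without SKNO-1 DMSO replicate 2. BST2 started from 2.23 and 1.13 CPM in SKNO-1 and from 61.6 and 58.2 CPM in U-937.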

How the results depend on the processing

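The precision is limited by 2 libraries a group. No called member changed sign in any alternative: over all refits of called results, 6270 kept the call and 400 lost it. The counts that moved most were those of SKNO-1. Members departing from additivity in SKNO-1 numbered 2, but 7 with no filter on low counts, 8 with the GC trend removed, 5 with the GC trend removed and the replicate block, and 0 to 17 when 1 library was left out. Members called with ATRA in SKNO-1 numbered 11, but 17 with the GC trend removed, 5 when only the 4 libraries compared were fitted, and 8 to 20 when 1 library was left out. Members called for both agents against Corin in SKNO-1 numbered 8, but 22 when only the libraries compared were fitted, and 3 to 22 when 1 library was left out. Members with a different Corin effect in the 2 lines numbered 17, but 11 when only the libraries compared were fitted, and 11 to 19 when 1 library was left out. The cause of these shifts was not tested. The other 12 counts stayed within 1.5 times of their value in each alternative. With library totals in place of TMM, the median log2 change over all genes moved from 0.02 to -0.11 for both agents against Corin in U-937, from 0.03 to -0.09 for both against DMSO there, from -0.11 to -0.26 for the difference between the lines under both agents, and from -0.01 to 0.15 for U-937 against SKNO-1 with DMSO. The correlation of same-numbered deviations ran from -0.49 to 0.42 over the 12 pairs of groups. These deviations followed GC content in some groups, so the correlations cannot settle whether the replicate numbers pair the libraries. With the replicate block, 16 of 366 called results were lost and 1 gained. The count of departures from additivity in SKNO-1 was then 1, beside 0.114% of all genes.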
